A study of Mus musculus with 4 samples.

Results

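The cytosolic ribosomal protein genes encode the protein parts of the ribosome, the particle that translates messenger RNA. They were taken by symbol from the gene list, as symbols of the Rpl and Rps series followed by a digit, Rplp0 to Rplp2 and Rpsa, leaving out the Rps6k kinases and symbols marked as pseudogenes. The rule found 86 of 31053 genes. Of these, 52 have symbols of the large subunit and 34 of the small subunit. The rule also takes up 9 symbols that are paralogues or of another kind. They are Rpl3l, Rpl7l1, Rpl10l, Rpl22l1, Rpl36al, Rpl39l, Rps27l, Rps27rt and Rps19bp1, the last of which encodes a protein that binds Rps19 and is not itself a part of the ribosome. At least 1 UMI (unique molecular identifier, a count of captured transcript molecules) was found for 85 of the 86 members.

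The data are a single-cell RNA library from the tibia of a male mouse at postnatal day 6, with the genotype Col10a1Cre;Rosa26-Tdtomato;Irx3 +/Δ;Irx5 +/-. Col10a1Cre is active in hypertrophic chondrocytes (HCs), the last stage of growth plate cartilage cells, so the tdTomato reporter marks HCs and the cells that descend from them. Irx3 and Irx5 are transcription factor genes. The study writes the Irx3 allele as ΔHC, its mark for deletion in HCs by Col10a1Cre. By that notation Irx3 is reduced in HCs and the cells that descend from them, and Irx5 in all cells. The labels call the animal a heterozygous control, and no other genotype was compared here. There is 1 library, entered as 4 sequencing runs, so no result has a replicate check and no test between conditions was possible; intervals below are exact 95% intervals of counting error.

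The mouse ribosome is built from a large and a small subunit, each made of ribosomal RNA and of many different proteins that are needed in near equal numbers. Most messages of these proteins start with a 5′ terminal oligopyrimidine (TOP) tract, a C followed by further C and T bases, through which the mTOR pathway controls their translation together. Some members have paralogues with restricted expression in particular tissues, and mutations of some members cause blood disorders (Rps19 in Diamond-Blackfan anaemia) or skeletal patterning defects (Rpl38 in the tail-short mouse).

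To show how the tract appears in these genes, the 30 bases from 10 before to 20 after the RefSeq gene start (GRCm38.p6) are given for 13 of the members whose levels are described below, whether or not they hold such a run. Capitals mark the longest run of at least 5 bases that starts with C and goes on with C or T. Rps19 has 3 listed starts and Rps27l and Rpl22 have 2 each, and for these the window with the longest run is shown. In the counts after the sequences, a gene held a match if any of its listed windows or promoters did.
Rpl38 (chr11:114668570-114668599, + strand): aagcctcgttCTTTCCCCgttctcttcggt
Rplp0 (chr5:115559457-115559486, + strand): cgggtttcgaggaccgcctggttCTCCTat
Rpsa (chr9:120127756-120127785, + strand): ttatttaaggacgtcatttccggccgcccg
Rps19 (chr7:24884903-24884932, + strand): agcggggtgtggagggCTCTCCCacgcggt
Rpl13a (chr7:45128726-45128755, - strand): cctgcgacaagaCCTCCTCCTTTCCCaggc
Rpl41 (chr10:128549149-128549178, - strand): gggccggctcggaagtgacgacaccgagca
Rps28 (chr17:33824543-33824572, - strand): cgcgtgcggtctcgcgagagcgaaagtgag
Rps27 (chr3:90213629-90213658, - strand): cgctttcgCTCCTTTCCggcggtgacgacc
Rps27l (chr9:66946076-66946105, + strand): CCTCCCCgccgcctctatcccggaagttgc
Rpl22 (chr4:152324426-152324455, + strand): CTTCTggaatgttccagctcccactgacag
Rpl22l1 (chr3:28805498-28805527, + strand): gcgcaagcccgttCTCTTCCCacggctgca
Rpl39 (chrX:37085203-37085232, - strand): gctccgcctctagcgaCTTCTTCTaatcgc
Rpl39l (chr16:10170218-10170247, + strand): aggCCTTTCCggatttccggtggtcgccat
The run began exactly at the annotated start in Rpl38 and spanned it in Rps27. It lay before the start in Rps27l, Rpl22 and Rpl39l and after it in Rplp0, Rps19, Rpl13a, Rpl22l1 and Rpl39, while Rpsa, Rpl41 and Rps28 held no run of this length in the window. A run of at least 5 bases was found in this window in 44 of the 66 members with a promoter entry (66.7%), beside 39.6% of all 27025 genes. A run of at least 8 bases was found in 24 of the 66 (36.4%), beside 10.1% of all genes. CCGGAAG, read on both strands of the 300-base promoters, was found in 26 of the 66 (39.4%), beside 9.93% of all genes, and TATAAA in 7 of the 66 (10.6%), beside 15.7%. These matches describe the letters in the windows and were not used in any comparison of levels.

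The matrix holds 14181 barcodes, of which 8705 had at least 1600 genes. After cells with over 10% mitochondrial UMIs were left out, 8256 cells remained, with a median of 13958 UMIs. Clustering without the ribosomal protein genes gave 29 clusters. Of these, 25 were named by marker genes into 21 classes that hold 7459 cells, and the other 797 cells stayed unnamed. The HC-like class rests on Col10a1 at 11206 CPM (UMIs of a gene scaled to a total of 1000000 UMIs), with Vegfa at 189 CPM, while Phospho1 had 0 UMIs in it. Its leading genes also held F13a1 and Fn1, which are on the monocyte list, at 589 and 9834 CPM, with the immune marker Ptprc at 10.2 CPM. Among its 10 leading genes, 2 were thus on the monocyte list and 1 on the HC list. The class named maturing chondrocyte-like consists of 2 clusters with no marker of that list among their 10 leading genes and 4 among the leading 30. Their 10 leading genes held Ucma, of the resting chondrocyte list, in one cluster and Ndufa4l2, of the smooth muscle or pericyte list, in the other, so this name is uncertain. In the class named small pre-B or immature B-like, 84.5% of cells held a UMI of the cell cycle gene Top2a, which goes against "small", so it is called by its Igkc expression below. Top2a was also found in 97.9% of late erythroid-like and 91.8% of early erythroid-like cells. The name late erythroid-like rests on genes such as those of haemoglobin and Slc4a1, and does not mean that these cells had stopped dividing. Doublets were marked in 14.5% of early erythroid-like and 18.4% of cycling maturing chondrocyte-like cells.

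Ribosomal protein genes took 23.4% of all UMIs of the cells kept, 32097378 of 137265974. Over single cells the share ran from 1.65% to 50.4%, with quartiles at 16.7% and 27.1%. The 5476 barcodes with fewer genes than the minimum held 6.15% in these genes, so the share over the whole matrix was 21.3%. Among members the UMIs were spread over a wide range. Rps24 had 783176, the highest count, the median member had 375250, Rpl3l had 148, and Rpl10l, a paralogue known from the testis, had 0 in the whole matrix.

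The share differed between the classes by about 3-fold. It was highest in basophil or mast-like cells at 32.96% (interval 32.91 to 33.01), followed by promyelocyte-like cells at 31.0% and early erythroid-like cells at 30.9%. This order at the top depended on the processing. With classes built anew in each setting, basophil or mast-like cells had 14.8% with marked doublets left out, 26.0% with up to 20% mitochondrial UMIs, 28.1% with at most 50% ribosomal protein UMIs per cell and 28.6% with 3000 variable genes, below early erythroid-like cells in each. Early erythroid-like cells stayed between 28.9% and 33.6% and promyelocyte-like cells between 27.5% and 32.8% over all settings. The share was lowest in myelocyte-like cells, the later neutrophil stage, at 10.6% (8.38% to 11.03% over the settings). It was also low in smooth muscle or pericyte-like (14.9%), stromal progenitor-like (15.8%) and fibroblast-like cells (17.7%). A late neutrophil-like class appeared in some settings only. With a minimum of 500 genes it was below myelocyte-like cells, at 4.93%. It was above them at 19.9% with a minimum of 2000 genes, 18.2% with at most 5% mitochondrial UMIs and 19.4% with Leiden resolution 0.6. Among cartilage cells, maturing chondrocyte-like cells had 28.0% (25.8% and 29.8% in its clusters), cycling ones 26.9%, pre-HC-like cells 24.0%, resting chondrocyte-like cells 19.3% and HC-like cells 18.7%. The value of resting chondrocyte-like cells was not stable, running from 17.7% to 28.3% over the settings, and it was above that of pre-HC-like cells with at most 5% mitochondrial UMIs (28.3% against 22.5%) and with at most 50% ribosomal protein UMIs per cell (25.5% against 24.1%). HC-like cells had between 18.5% and 20.3% in every setting. Late erythroid-like cells, at 18.9%, had 11.05% with a minimum of 500 genes. Among osteoblasts the immature class had 21.7% and the mature class 19.2%. The interval was widest in T or NK-like cells, the smallest class, at 25.04% to 25.38%, while the spread over cells was far wider. The quartiles over cells of neighbouring classes overlapped, for example 16.5% to 20.7% in HC-like and 16.0% to 22.2% in mature osteoblast-like cells, so the order among classes with shares near 19% does not exceed the spread between cells. The quartiles of pre-HC-like cells (20.9% to 26.3%) and of HC-like cells did not overlap.

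**Figure D1:**
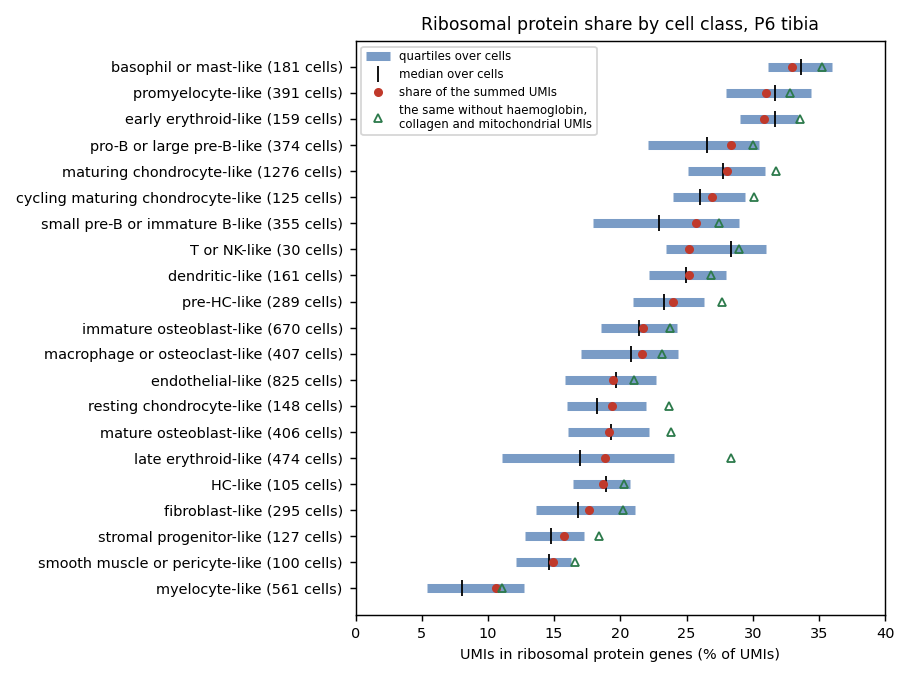
Share of UMIs in ribosomal protein genes (x axis, % of UMIs) in each cell class (y axis), with the quartiles and median over cells, the share of the summed UMIs, and the same share without haemoglobin, collagen and mitochondrial UMIs. Myelocyte-like cells lie lowest at 10.6% and basophil or mast-like cells highest at 32.96%, a rank that other settings did not keep.

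The share is a part of a whole, so genes with very high counts lower it. Haemoglobin, collagen and mitochondrial genes took 33.4% of the UMIs of late erythroid-like cells and 19.4% of those of mature osteoblast-like cells. Counted without them, the ribosomal protein share was 28.3% in late erythroid-like and 23.8% in mature osteoblast-like cells, equal there to 23.8% in immature osteoblasts, and it stayed at 11.03% in myelocyte-like cells. Depth also moved with the share within some classes. The cells below the class median of UMIs held 14.2% against 21.6% in the deeper cells for late erythroid-like cells, 7.49% against 12.4% for myelocyte-like cells, and 18.2% against 18.9% for HC-like cells. Other classes went the opposite way, with 26.0% in the shallower against 22.7% in the deeper pre-HC-like cells, 28.4% against 24.0% for T or NK-like and 34.4% against 32.3% for basophil or mast-like cells. The part of depth in the differences between classes was not tested. Classes made of more than 1 cluster differed within themselves, from 15.4% to 20.4% in endothelial-like and from 25.8% to 29.8% in maturing chondrocyte-like cells.

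The composition of the pool, meaning each member's share of all ribosomal protein UMIs of a class, was far more even than the share itself. For the 84 members with at least 1000 UMIs, the highest class exceeded the lowest by a median of 1.56-fold. It was under 1.5-fold for 31 members, between 1.5-fold and 2-fold for 42, 2-fold or more for 10, and could not be given for Rpl39l, which had a class at 0. With the T or NK-like class of 30 cells left out, 35 members were under 1.5-fold and 10 at 2-fold or more. The range was similar in both subunits, with a median of 1.57-fold over 31 main members of the small subunit and 1.52-fold over 46 of the large. The narrowest ranges were those of Rps23 and Rpl23 (1.27-fold for both) and Rps7 (1.28-fold). The subunits together were also in steady proportion. Of the UMIs of the 77 main members, leaving out the paralogues and atypical symbols, small subunit genes made up 44.4% in HC-like cells, the lowest. They made up 49.2% in myelocyte-like cells, the highest.

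**Figure D2:**
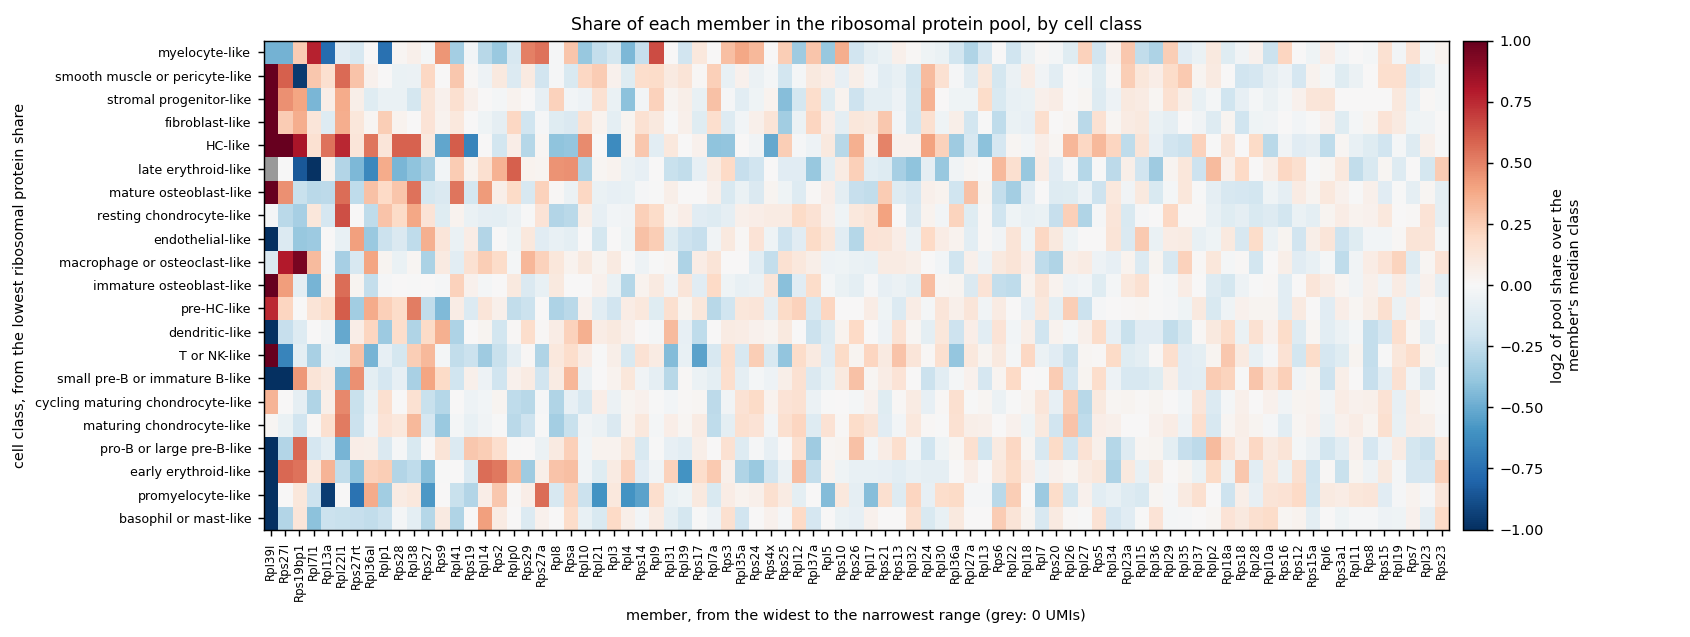
Share of the ribosomal protein pool of 83 members in each class, as log2 over the member's median class (colour, from -1 to 1), with members on the x axis from the widest to the narrowest range and classes on the y axis from the lowest ribosomal protein share. HC-like, late erythroid-like, myelocyte-like and promyelocyte-like cells hold most of the strong colours.

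Of the 84 members, 17 had their highest and 14 their lowest pool share in HC-like cells, against 1 and 1 in pre-HC-like cells. Late erythroid-like cells had 7 and 15, myelocyte-like cells 12 and 7 and promyelocyte-like cells 7 and 11. In HC-like cells Rpl41, the smallest ribosomal protein, took 3.36% of the pool, against 1.75% in myelocyte-like cells. Rps28 took 0.892% in HC-like against 0.43% in late erythroid-like cells, and Rpl38 1.21% in HC-like against 0.61% in late erythroid-like cells. High shares of Rpl41 and Rpl38 were not particular to HC-like cells. Mature osteoblast-like cells came close, with 52388 and 19265 of 1636945 pool UMIs, as did pre-HC-like cells for Rpl38, with 25837 of 2246296. Rps19, which is needed to mature the small subunit, was lowest in HC-like cells at 1.08% and highest in pro-B or large pre-B-like cells at 2.06%.

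The proteins of the ribosomal stalk, which recruits the elongation factors, took their highest shares of the pool in erythroid cells. Rplp0, Rplp1 and Rplp2 together took 6.97% of the pool in late erythroid-like and 6.16% in early erythroid-like cells, while the other blood classes, between 4.09% (myelocyte-like) and 5.23% (macrophage or osteoclast-like), lay below fibroblast-like (5.74%), mature osteoblast-like (5.66%) and HC-like cells (5.42%). Rplp0, the base of the stalk, was highest in late erythroid-like cells at 2.73% and lowest in maturing chondrocyte-like cells at 1.502%. Rplp1 was highest in late erythroid-like cells at 2.95% and lowest in myelocyte-like cells at 1.37%. Rplp2 had a narrower range, from 0.922% in maturing chondrocyte-like cells to 1.29% in pro-B or large pre-B-like cells. Rpsa, the small subunit protein also known as the laminin receptor, was highest in late erythroid-like cells at 2.58% and lowest in HC-like cells at 1.43%.

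Promyelocyte-like cells held several of the extremes. Rps27a, which is made as a fusion with ubiquitin, took 3.09% of the pool in promyelocyte-like and 3.07% in myelocyte-like cells. It took 1.71% in T or NK-like cells, the lowest class, and 1.84% in Igkc-expressing B-lineage cells. Rpl5, which with Rpl11 binds Mdm2 when ribosome assembly fails, was lowest in promyelocyte-like cells at 0.47% and highest in pre-HC-like cells at 0.738%, while Rpl11 was at 1.40%, its highest. Rps14, the gene lost in 5q- syndrome, was at 0.973% against 1.73% in endothelial-like cells. Rpl13a was at 0.0617% against 0.173% in HC-like cells. Rpl13a overlaps Gm45713 on the same strand (chromosome 7, 45125558 to 45128761, GRCm38), so its counts may be split and its level is uncertain.

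Going from pre-HCs to HCs, the step at which chondrocytes enlarge, the ribosomal protein share was lower by 0.36 on the log2 scale (24.0% to 18.7%). Of 84 members with at least 10 CPM in either class, 13 were lower in HC-like cells by 1.5-fold or more in CPM (15.5%), beside 10.5% of the 7988 genes compared, and 2 were higher (2.38%), beside 44.7% of all genes. The median member was at -0.39 and the median of all genes at 0.49. Relative to the pool, 3 members passed 1.5-fold (3.57%), beside 71.2% of all genes measured against the same pool. The pool is the sum of the members, so their ratios centre near 0 by construction. All other genes carry the change of the pool as well. Here and in each comparison below, the gap between these percentages therefore does not show that the members are unusually even. Rpl39l was at 59.7 CPM in HC-like and 29.0 CPM in pre-HC-like cells, a log2 pool ratio of 1.40 (1.13 to 1.66). Rps27l, a paralogue of Rps27 known as a p53 target, was at 677 CPM against 451 CPM, a log2 pool ratio of 0.94 (0.87 to 1.02). Rps19bp1 was at 45.2 CPM against 32.9 CPM, a log2 pool ratio of 0.82 (0.53 to 1.10). Each of these intervals excludes 0, but that of Rps19bp1 reaches below 1.5-fold. For Rpl39l the interval takes no account of how its UMIs were spread over cells. Among HC-like cells, 16 cells held 81.9% of them. Thinned to 5000 UMIs per cell, 16.2% of HC-like cells held a UMI of Rpl39l (9.7% to 24.7%). In pre-HC-like cells it was 9.4% (6.3% to 13.3%), so these intervals overlap. Next among the higher members were Rpl41 and Rps21, at a log2 pool ratio of 0.54 each. The lowest members were Rps19 (2025 CPM in HC-like and 3737 CPM in pre-HC-like cells), with a log2 pool ratio of -0.53, Rpl3 at -0.44, Rps4x at -0.42, Rpl36a at -0.41 and Rpl13 at -0.38. In HC-like cells set beside immature osteoblast-like cells, a comparison added after the values were seen, 11 of 84 members passed 1.5-fold relative to the pool (13.1%), beside 56.8% of all genes. Rpl38, Rps28 and Rps25 were among those higher in HC-like cells, and Rps19, Rps4x and Rpl7a among those lower.

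**Figure D3:**
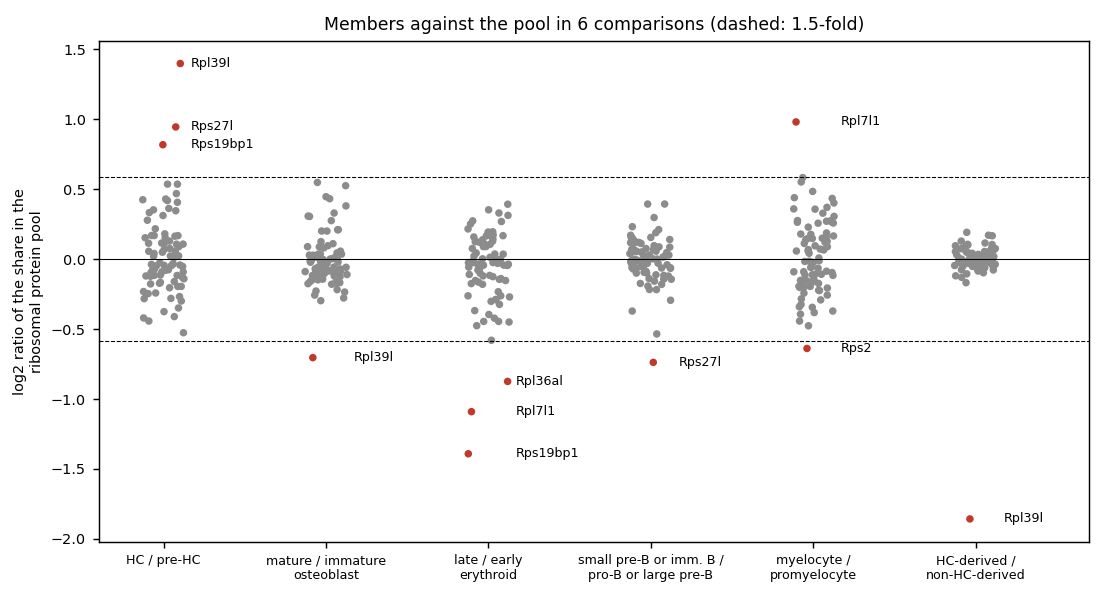
Log2 ratio of each member's share of the ribosomal protein pool (y axis) in 6 comparisons (x axis), with each point a member, 1.5-fold as dashed lines and members past it in red with their names. Most members lie within 0.6 of 0, and the members outside are mostly low paralogues and Rps19bp1.

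From immature to mature osteoblasts the share was lower by 0.18 on the log2 scale (21.7% to 19.2%), while without haemoglobin, collagen and mitochondrial UMIs the log2 ratio was 0.0017, with the sign turned. In CPM, 1 of 84 members was lower by 1.5-fold (1.19%), beside 42.3% of the 8361 genes compared, and 0 were higher, beside 8.53% of all genes. Relative to the pool the same 1 member passed (1.19%), beside 41.0%. This was Rpl39l, at 70.0 CPM in mature and 129 CPM in immature osteoblast-like cells, with a log2 pool ratio of -0.70 (-0.85 to -0.56). Here too the interval takes no account of how its UMIs were spread over cells. Rpl38 was the highest at 2256 CPM against 1749 CPM, a log2 pool ratio of 0.55 (0.52 to 0.58). Rpl36al followed at 0.52, Rpl14 at 0.45, Rpl27a at 0.43 and Rps25 at 0.38. Rpl36al overlaps Gm49383 on the same strand, so its counts are uncertain.

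From early to late erythroid-like cells the share was lower by 0.71 on the log2 scale (30.9% to 18.9%), and by 0.24 without haemoglobin, collagen and mitochondrial UMIs. In CPM, 63 of 83 members were lower by 1.5-fold (75.9%), beside 58.0% of the 7123 genes compared, and 0 were higher, beside 12.9%. The median member was at -0.75 and the median of all genes at -0.79, so the members did not stand below the genes as a whole. Relative to the pool, 3 members passed (3.61%), beside 58.9% of all genes, each of them lower and of low count. They were Rps19bp1 (14.4 CPM against 61.7 CPM), Rpl7l1 (24.9 CPM against 86.7 CPM) and Rpl36al (268 CPM against 802 CPM), with log2 pool ratios of -1.39, -1.09 and -0.87. Rpl7l1 has an antisense neighbour, Gm26904. Rps27l was next at -0.58. The highest were Rps29 (0.39), Rpl39 (0.35), Rps3a1 (0.33), Rps26 (0.31) and Rps16 (0.27). In CPM each of these was also lower in late erythroid-like cells.

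From pro-B or large pre-B-like to Igkc-expressing B-lineage cells the share was lower by 0.14 on the log2 scale (28.4% to 25.7%). In CPM, 2 of 84 members were lower by 1.5-fold (2.38%), beside 11.5% of the 7890 genes compared, and 0 were higher, beside 13.7%. Relative to the pool 1 member passed (1.19%), beside 27.8% of all genes. It was Rps27l, at 205 CPM in Igkc-expressing and 376 CPM in pro-B or large pre-B-like cells, a log2 pool ratio of -0.74 (-0.87 to -0.61). The other member lower in CPM was Rpl3l, a paralogue known from muscle, at 7.41 CPM against 11.8 CPM, the highest levels of this gene in any class. These levels rest on 23 UMIs in Igkc-expressing and 54 UMIs in pro-B or large pre-B-like cells. Only the level in pro-B or large pre-B-like cells reached the minimum for a comparison. With so few UMIs the call of Rpl3l as lower is uncertain. Rps2 was at -0.37, Rpl14 at -0.29 and Rps19 at -0.22, while Rps27 and Rps27rt were at 0.39 each, Rpl7l1 at 0.30, Rpl34 at 0.23 and Rpl37a at 0.21.

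From promyelocytes to myelocytes the share was lower by 1.55 on the log2 scale, 2.93-fold (31.0% to 10.6%). In CPM, 82 of 83 members were lower by 1.5-fold (98.8%), beside 37.1% of the 7235 genes compared, and 0 were higher, beside 17.6%. The median member was at -1.56 and the median of all genes at -0.27. The member that did not pass was Rpl7l1, at 47.3 CPM against 70.2 CPM. Relative to the pool, 2 members passed (2.41%), beside 80.0% of all genes. Rpl7l1 had a log2 pool ratio of 0.98 (0.78 to 1.18) and Rps2 (1675 CPM against 7641 CPM) of -0.64 (-0.67 to -0.61). Rps27rt (0.58), Rps27 (0.55), Rpl9 (0.48) and Rps9 (0.44) followed on the higher side, and Rps27l (-0.48), Rpl22 (-0.44), Rplp1 (-0.39) and Rpl36a (-0.38) on the lower side.

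Other genes of ribosome production were followed through the same steps by lists of genes. Of 35 ribosome biogenesis factors, 35 were lower in myelocyte-like than in promyelocyte-like cells by 1.5-fold in CPM, beside 37.1% of all genes. In late against early erythroid-like cells 34 were lower, beside 58.0% of all genes. The medians of the list were -2.12 and -2.91 on the log2 scale. Fbl, the methyltransferase of ribosomal RNA, was at 25.5 CPM in myelocyte-like and 193 CPM in promyelocyte-like cells. Gar1, of the pseudouridine-forming particles, was at 10.9 CPM and 102 CPM. In late erythroid-like cells Heatr1 was at 3.56 CPM against 54.3 CPM and Nop16 at 4.64 CPM against 70.6 CPM. In HC-like cells 10 of the 35 were higher than in pre-HC-like cells and 1 lower, beside 44.7% and 10.5% of all genes. Eif6, which keeps the subunits apart, was at 316 CPM against 113 CPM, and Ltv1, of small subunit maturation, at 64.3 CPM against 118 CPM. In mature osteoblast-like cells 9 of 33 were lower and 0 higher, beside 42.3% of all genes lower. In Igkc-expressing B-lineage cells 12 of 35 were lower and 0 higher, beside 11.5% of all genes lower. Fbl was lower in both, at 80.0 CPM against 140 CPM and at 156 CPM against 295 CPM.

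Subunits and factors of RNA polymerase I, which transcribes the ribosomal RNA genes, were lower for 11 of 11 in myelocyte-like and 13 of 13 in late erythroid-like cells, for 4 of 10 in mature osteoblast-like cells and for 0 of 12 in Igkc-expressing B-lineage cells. Of all genes compared, 37.1%, 58.0%, 42.3% and 11.5% were lower in these comparisons, so the osteoblast count was near the background. In HC-like cells 7 of 12 were higher and 0 lower, beside 44.7% and 10.5% of all genes. Mitochondrial ribosomal proteins, which build another ribosome, were lower for 73 of 77 in myelocyte-like and 72 of 77 in late erythroid-like cells, for 8 of 73 in mature osteoblast-like cells and for 7 of 77 in Igkc-expressing B-lineage cells. Against the same shares over all genes, the first pair of counts lay above the background, the osteoblast count far below it and the B-lineage count near it. In HC-like cells 32 of 76 were higher and 1 was lower, at a median of 0.49, the same as that of all genes, where the cytosolic members had a median of -0.39. Among the translation factors with TOP messages, 16 of 17 were lower in myelocyte-like and 12 of 17 in late erythroid-like cells, beside 37.1% and 58.0% of all genes. Tpt1, a growth-related protein with a TOP message, was at 4866 CPM in late and 4112 CPM in early erythroid-like cells. In HC-like cells 4 of 17 were lower and 1 higher, beside 10.5% and 44.7% of all genes. Eef1g was at 434 CPM against 789 CPM and Btf3 at 1394 CPM against 857 CPM. In mature osteoblast-like cells 3 of 17 were lower, with Hnrnpa1 at 303 CPM against 526 CPM, and in Igkc-expressing B-lineage cells 1 of 17, beside 42.3% and 11.5% of all genes.

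Of the genes that control ribosome production, 3 of 19 were higher and 6 lower in myelocyte-like cells, beside 17.6% and 37.1% of all genes. Mxd1, an antagonist of Myc, was at 217 CPM against 26.0 CPM, and at 84.8 CPM against 31.7 CPM in late against early erythroid-like cells, where 2 of 19 were higher and 11 lower, beside 12.9% and 58.0%. In HC-like cells 9 of 19 were higher and 2 lower, which is near the 44.7% and 10.5% of all genes, so the list as a whole did not stand apart. Among its genes Trp53 was at 87.6 CPM against 17.9 CPM, Eif4ebp1, a target of mTOR, at 475 CPM against 225 CPM, and Myc at 31.8 CPM against 58.2 CPM. In mature osteoblast-like cells 1 of 19 was higher and 6 lower, beside 8.53% and 42.3% of all genes. In Igkc-expressing B-lineage cells 3 of 19 were higher, beside 13.7%, among them Myc at 62.8 CPM against 24.1 CPM. Fau, made as a fusion with a ubiquitin-like protein, encodes a ribosomal protein that the rule leaves out by its symbol. It was at 3245 CPM in myelocyte-like and 6111 CPM in promyelocyte-like cells, lower by 1.5-fold or more, and did not pass in the other comparisons of classes above.

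Some paralogues varied more between classes than their main copies, though some main members, such as Rpl13a above, also varied widely. Rps27l was at 677 CPM in HC-like, 744 CPM in early erythroid-like and 609 CPM in macrophage or osteoclast-like cells, and at 124 CPM in myelocyte-like and 205 CPM in Igkc-expressing B-lineage cells. Its range of pool share was 4.55-fold, where its main copy Rps27 had 1.95-fold. Rpl22l1 was at 1904 CPM in maturing chondrocyte-like and 1498 CPM in HC-like cells, while Rpl22 was at 1928 CPM and 1268 CPM there. In pro-B or large pre-B-like cells Rpl22l1 was at 977 CPM and Rpl22 at 2188 CPM, and in dendritic-like cells at 835 CPM and 1655 CPM. Osteoblasts also held more UMIs of Rpl22l1 than of Rpl22. The counts were 12997 and 10414 in immature and 11426 and 8638 in mature osteoblast-like cells. The balance between paralogue and main copy in these blood cells thus differed from that in cartilage and in osteoblasts, and was not particular to cartilage. The UMI counts were not scaled by transcript length. Rpl22l1 overlaps an antisense gene, Gm33051. The longest stretch shared letter by letter by their transcripts in the GENCODE M21 annotation was 26 bases for Rpl22 and Rpl22l1, 38 bases for Rpl39 and Rpl39l and 11 bases for Rps27 and Rps27l. Rps27rt, a retrogene inside Osbpl10, shares 341 of its 374 bases with Rps27 in 1 stretch. Its counts moved with those of Rps27 in both the B-lineage and the myelocyte comparison above, and reads of these genes cannot be told apart with certainty.

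**Figure D4:**
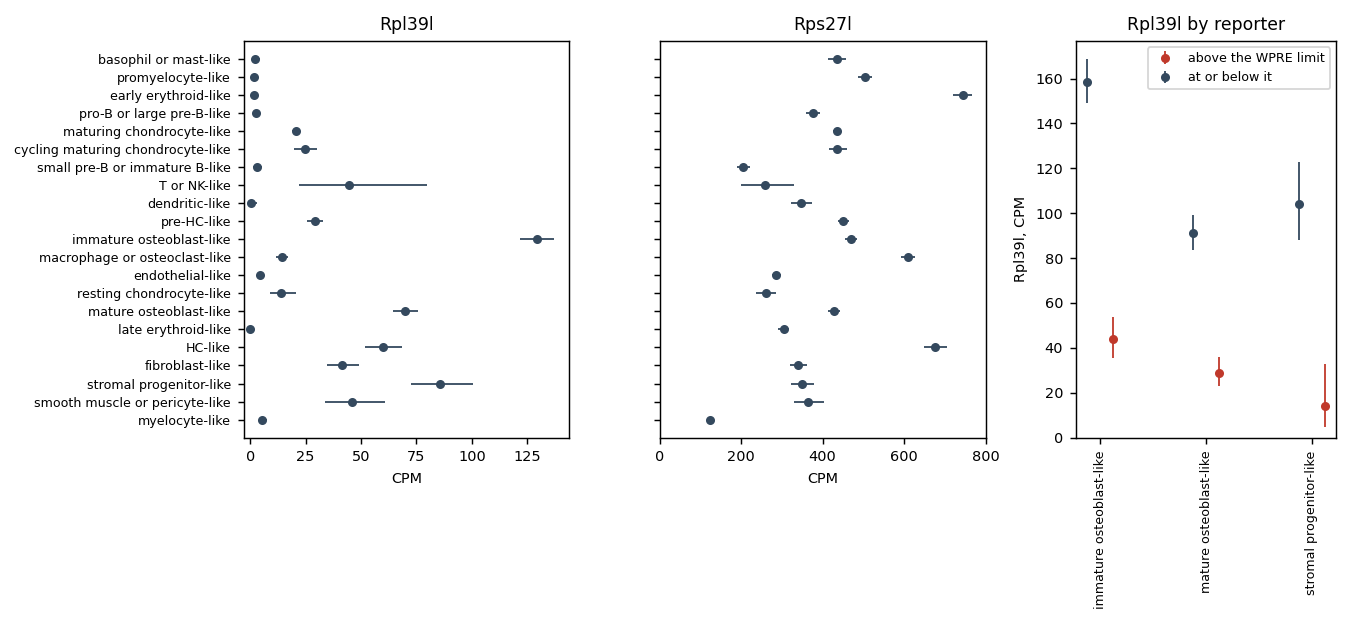
Level in CPM of Rpl39l and Rps27l in each class (left and middle, classes from the lowest ribosomal protein share at the bottom), and of Rpl39l in 3 osteogenic classes split by the reporter (right), with exact 95% intervals of counting error. Rpl39l lies at or below 14.2 CPM in blood cells other than the 30 T or NK-like cells and at 129 CPM in immature osteoblast-like cells, and is lower in reporter-positive cells of each of the 3 classes.

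Rpl39l, a paralogue of Rpl39 known from the testis that lies on chromosome 16 (10170226 to 10174911, GRCm38), was at 129 CPM in immature osteoblast-like, 85.7 CPM in stromal progenitor-like, 70.0 CPM in mature osteoblast-like and 59.7 CPM in HC-like cells. Smooth muscle or pericyte-like and fibroblast-like cells had 45.9 CPM and 41.3 CPM. Chondrocytes were lower, at 29.0 CPM in pre-HC-like, 20.5 CPM in maturing and 13.8 CPM in resting chondrocyte-like cells. Macrophage or osteoclast-like cells had 14.2 CPM, close to resting chondrocyte-like cells, though the 114 UMIs behind it lay in 17 of 407 cells. The level was between 0.527 CPM (dendritic-like) and 5.53 CPM (myelocyte-like) in the other blood classes apart from late erythroid-like cells and T or NK-like cells, where 11 UMIs in 3 of 30 cells gave 44.5 CPM. Late erythroid-like cells had 0 of 6463277 UMIs, which allows up to 0.464 CPM. Rpl39 itself stayed between 1447 CPM and 4713 CPM. Thinned to 5000 UMIs per cell, 40.4% of 654 immature osteoblast-like cells held a UMI of Rpl39l (interval 36.6% to 44.2%; 59.6% without thinning), against 1.36% of 736 endothelial-like cells and 0 of 474 late erythroid-like cells, which allows up to 0.633%.

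Cells derived from HCs were compared with other cells of bone lineage by the reporter, with HC-derived cells defined by more than 14 UMIs of WPRE, a sequence element of the tdTomato transgene. This rule follows the methods of the study. The study names limits in detecting tdTomato messages, so the other cells may hold HC descendants that missed the cutoff. Cells at or below it are called non-HC-derived here. The cutoff is a raw count, and HC-derived cells were deeper, with medians of 15858 against 12759 UMIs. The part of depth in this split was not tested. In the immature osteoblast-like, mature osteoblast-like and stromal progenitor-like classes together there were 294 HC-derived and 909 other cells. The ribosomal protein share was alike, at 19.9% and 20.1%, a log2 ratio of -0.016 (-0.019 to -0.013). Within classes it was 20.7% against 22.1% in immature, 19.9% against 18.8% in mature osteoblast-like and 14.7% against 16.1% in stromal progenitor-like cells, so the direction was not shared by the classes. Of 84 members, 1 was lower in CPM by 1.5-fold (1.19%), beside 4.92% of the 8095 genes compared, and 0 were higher, beside 2.84%. Relative to the pool the same member passed (1.19%), beside 7.66% of all genes. The other 83 members had log2 pool ratios between -0.17 and 0.19.

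That member was Rpl39l, at 34.0 CPM in HC-derived (interval 29.3 to 39.3) and 125 CPM in non-HC-derived cells (119 to 131), 3.66-fold lower (3.15 to 4.29). These intervals take no account of how its UMIs were spread over cells, which was uneven on both sides, as given below, so they are too narrow. By the study's notation, HC-derived cells would also differ from the others in Irx3 dose. Origin and dose thus cannot be told apart here. The difference in Rpl39l stood in each of the 3 classes. It was 44.0 CPM against 159 CPM in immature osteoblast-like cells, 29.0 CPM against 91.2 CPM in mature osteoblast-like cells, and 14.1 CPM against 104 CPM in stromal progenitor-like cells, where 5 UMIs in 27 cells stand behind the lower value. Rpl39 was at 3164 CPM and 3321 CPM in the same cells. With HC-derived cells defined by at least 1 tdTomato UMI (119 against 1084 cells) Rpl39l was 3.36-fold lower. Thinned to 5000 UMIs, 11.3% of 293 HC-derived cells held a UMI of Rpl39l (7.88% to 15.4%) and 42.9% of 891 others (39.6% to 46.2%), and without thinning 26.5% and 67.2%. In HC-like cells split by tdTomato, 51 against 54 cells, Rpl39l was at 56.3 CPM and 64.6 CPM, and the interval of the fold includes 1 (0.864 to 1.52). This split followed depth in part, with medians of 40529 and 28080 UMIs. In the cells kept tdTomato had only 309 UMIs, against 17780 of WPRE. It thus cannot show whether Rpl39l differs by reporter in HC-like cells. With the WPRE rule a side held too few HC-like cells for a value. Of the lists above, 0 genes passed 1.5-fold between HC-derived and non-HC-derived cells of the 3 classes together, except 1 of 73 mitochondrial ribosomal proteins. Within classes more genes passed. In mature osteoblast-like cells 5 of 33 biogenesis factors were higher and 1 lower. In stromal progenitor-like cells 1 of 34 was higher and 6 lower, with 5 of 72 mitochondrial ribosomal proteins higher and 12 lower. The shares over all genes within classes are not given here.

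**Figure D5:**
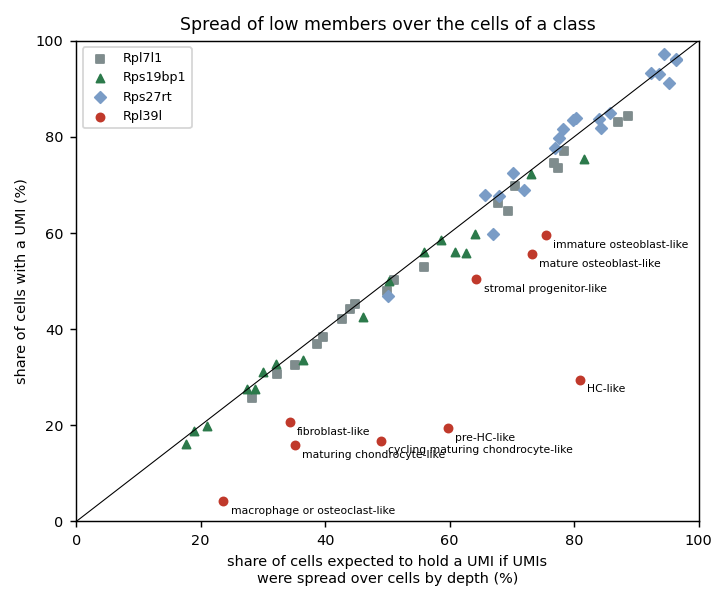
Share of cells with at least 1 UMI of a gene (y axis, %) against the share that would hold one if the gene's UMIs were spread over the cells of the class by depth alone (x axis, %), for 4 low members in each class with at least 50 UMIs of the gene. Rpl7l1, Rps19bp1 and Rps27rt lie near the diagonal, and Rpl39l lies below it in all classes shown, named beside its points.

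The UMIs of Rpl39l were gathered in some of the cells. In HC-like cells its 210 UMIs lay in 31 of 105 cells (29.5%), where an even spread by depth would put at least 1 UMI in 80.9% of cells. The 16 cells with 5 or more UMIs held 81.9% of them, and the highest cell had 24. Cells with and without a UMI had similar depth, with medians of 34819 and 32435 UMIs. Rpl7l1, with 191 UMIs in the same cells, was found in 77.1% of them, where an even spread gives 78.4%, and Rps19bp1, with 159 UMIs, in 72.4%, where it gives 73.1%. In pre-HC-like cells the 272 UMIs of Rpl39l lay in 19.4% of cells (even spread 59.7%), and in maturing chondrocyte-like cells in 15.9% (even spread 35.1%). In macrophage or osteoclast-like cells 114 UMIs lay in 17 of 407 cells, with 27 in the highest. The 6 cells with 5 or more UMIs held 82.5% of them. Depth was not alike in every class. Medians with and without a UMI were 28991 and 17811 UMIs in macrophage or osteoclast-like and 18471 and 15419 in HC-derived cells. In maturing chondrocyte-like cells they were 20849 and 20789 UMIs. The gap was smaller in non-HC-derived osteogenic cells, at 67.2% (even spread 77.9%), than in HC-derived ones, at 26.5% (even spread 44.0%). Per cell with a UMI the count was 2.37 in HC-derived and 2.73 in non-HC-derived cells. Doublets were marked in 5.78% of HC-derived and 5.28% of non-HC-derived cells, and their part in the difference was not tested.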

How the data were processed

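UMI counts per gene and barcode were deposited by the authors as 1 matrix, made with Cell Ranger 3.1.0 on mm10, per the labels and the study's methods, with a separate matrix of transgene sequences. The sources used here do not name the annotation release. From these counts, cells with at least 1600 genes and at most 10% mitochondrial UMIs were kept. Cells were clustered in scanpy 1.11.5 (2000 variable genes without ribosomal protein genes, 30 components, 20 neighbours, Leiden resolution 1) and named by marker lists, with the naming rule set after the clusters were seen. By Scrublet, 588 barcodes (4.15%) were likely doublets; they stayed in. UMIs were summed per class and given as CPM or as a share of the ribosomal protein pool. Genes with at least 10 CPM in either class were compared, and 1.5-fold was called. The text names the 5 members in each direction with the largest pool ratio and at least 100 UMIs, the paralogues with their main copies, members with a known role and those of widest or narrowest range, apart from items that are not reported here. With 1 library there was no test, and p-values are not given. Intervals are exact Poisson or Clopper-Pearson 95% intervals, and the limit for 0 UMIs is 3 counts. The fold calls were tested on simulated data, with changes larger than 1.5-fold in genes well above 10 CPM and no spread between cells. That test does not cover calls near 1.5-fold or members of low count. Other filters, clusterings and definitions were tried as alternatives. Members and lists were chosen with earlier results of these data known, and the comparison of immature osteoblasts with HCs and the spread of Rpl39l over cells were added after values were seen.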

Additional observations from a re-analysis of the deposited data

Results flagged for a closer look

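Signals in data outside the comparisons, above the limit of 3 counts, were found in the cells kept. Ribosomal protein symbols marked as pseudogenes held 24901 UMIs in 8 of 9 symbols, 0.0776% of the UMIs of the members, with 13896 in Rpl10-ps3 and 6100 in Rps12-ps3. In the matrix of transgene sequences, the Cre sequence had 4 UMIs and EGFP had 58 UMIs.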

How the results depend on the processing

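No paired analysis was possible because the 4 sequencing entries were counted together as 1 library, and for the same reason no replicate could be left out. With at most 5% mitochondrial UMIs the B-lineage comparison gave no value, since a class was not found. The direction of each share ratio held under the alternatives that gave a value, except that of the osteoblast ratio without haemoglobin, collagen and mitochondrial genes, which was just above 0. The causes were not tested. Depth limits the low members, such as the 5 UMIs of Rpl39l in HC-derived stromal progenitor-like cells. The log2 ratio of the ribosomal protein share moved beyond counting error to the following values. With minimum of 500 genes per cell it was -0.48 (HC), -0.21 (osteoblast), -1.49 (erythroid), -0.20 (B-lineage), -1.65 (myelocyte), -0.029 (HC-derived). With at most 5% mitochondrial UMIs it was -0.24 (HC), -0.12 (osteoblast), -0.81 (erythroid), -1.72 (myelocyte), -0.057 (HC-derived). With at most 20% mitochondrial UMIs it was -0.49 (HC), -0.24 (osteoblast), -0.73 (erythroid), -1.57 (myelocyte), -0.00014 (HC-derived). With at most 50% ribosomal protein UMIs per cell it was -0.36 (HC), -0.24 (osteoblast), -0.72 (erythroid). With ribosomal protein genes allowed in the clustering it was -0.34 (HC), -0.22 (osteoblast), -0.75 (erythroid), -0.16 (B-lineage), -1.58 (myelocyte), -0.012 (HC-derived). With Leiden resolution 0.6 it was -0.52 (HC), -0.13 (osteoblast), -0.78 (erythroid), -0.20 (B-lineage), -0.023 (HC-derived). With Leiden resolution 1.5 it was -0.48 (HC), -0.24 (osteoblast), -0.80 (erythroid), -1.57 (myelocyte). With 3000 variable genes it was -0.34 (HC), -0.20 (osteoblast), -0.73 (erythroid), -0.16 (B-lineage), -1.69 (myelocyte), -0.028 (HC-derived). With cells marked as doublets left out it was -0.50 (HC), -0.25 (osteoblast), -0.78 (erythroid), -0.15 (B-lineage), -1.64 (myelocyte), -0.027 (HC-derived). With share of UMIs without haemoglobin, collagen and mitochondrial genes it was -0.45 (HC), 0.0017 (osteoblast), -0.24 (erythroid), -0.13 (B-lineage), -1.57 (myelocyte), -0.011 (HC-derived). With mean over cells of the share per cell it was -0.38 (HC), -0.17 (osteoblast), -0.73 (erythroid), -0.17 (B-lineage), -1.69 (myelocyte), -0.023 (HC-derived). With members without paralogues and atypical symbols it was -0.36 (HC), -0.71 (erythroid). With minimum of 2000 genes per cell it was -0.20 (osteoblast), -0.63 (erythroid), -0.15 (B-lineage), -1.56 (myelocyte), -0.030 (HC-derived). The count of members past 1.5-fold relative to the pool moved as follows. With at most 20% mitochondrial UMIs it was 5 (HC). With Leiden resolution 0.6 it was 5 (HC), 2 (osteoblast), 0 (B-lineage). With Leiden resolution 1.5 it was 5 (HC). With cells marked as doublets left out it was 6 (HC), 2 (B-lineage). With a fold of 2 it was 1 (HC), 0 (osteoblast), 0 (B-lineage), 0 (myelocyte). With mean over cells of the share per cell it was 3 (osteoblast), 5 (erythroid), 8 (myelocyte). With no minimum of CPM it was 2 (osteoblast), 5 (erythroid), 4 (myelocyte), 2 (HC-derived). With at most 5% mitochondrial UMIs it was 6 (myelocyte). With 3000 variable genes it was 4 (myelocyte).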
